A study of Mus musculus with 6 samples.

Results

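The enzymes that write, copy and remove DNA methylation were examined in E14 mouse embryonic stem cells as a set of 10 genes chosen by name. They are Dnmt1, Uhrf1 and Uhrf2 for maintenance, Dnmt3a, Dnmt3b and Dnmt3l for de novo methylation, Tet1, Tet2 and Tet3 for oxidation and Tdg for excision. All 10 were present among the 33924 gene symbols of the count tables and all 10 were among the 14250 genes tested. RNA-seq counts were compared between 3 libraries labelled control (cell type given as WT) and 3 labelled Rif1-KO, the series being about what loss of the chromatin protein Rif1 does to expression. Per the labels, all 6 were E14 cells on 0.1% gelatin in 2i medium, and 1 treatment text covering both groups gives 0.1 µM 4-OHT, the active form of tamoxifen, for 2 days followed by 1 day without drug. The column names inside the tables read 2i for the control libraries and TAM for the Rif1-KO-labelled libraries, so a difference in drug or medium cannot be told apart from the genotype. How Rif1 was disrupted, and whether the replicates are separate cultures or 1 clone, is not given in the sources used here, and the p-values therefore measure only the spread between these libraries.

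DNA methylation sits mainly on cytosines that precede guanines. DNMT1 copies it to the new strand after replication, guided by UHRF1, which binds DNA methylated on a single strand, while UHRF2 is a relative of UHRF1 that is not known to replace it in this task. DNMT3A and DNMT3B methylate unmarked DNA, and DNMT3L is a partner without catalytic activity that stimulates them. TET proteins oxidise methylcytosine, and TDG cuts out the further oxidised bases so that repair restores plain cytosine. Stem cells held in 2i medium are known for a low level of DNA methylation and low expression of the de novo enzymes. Methylation itself was not measured in these libraries.

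Libraries held 8383632 to 10980777 counts, and the 10 genes held 140 to 10653 counts per library. Rif1 itself had 657 to 700 CPM (a gene's count scaled to the library total, after TMM adjustment) in control and 602 to 664 CPM in the Rif1-KO-labelled libraries, with a log2 fold change of −0.12 ± 0.05 (standard error) and an adjusted p of 0.0509 by edgeR, and it passed under 9 of 13 alternative analyses, among them an offset for GC content and annotated exon length (−0.35). A count over the whole gene does not check a deletion of part of it, so the groups are named by their labels. The stem cell identity was checked on 13 markers, which summed to 5831 to 6022 CPM in control and 5834 to 6181 CPM in the Rif1-KO-labelled libraries, with Pou5f1, Nanog, Sox2 and Esrrb all read. The near-equal sums hid changes in both directions, since 5 of the 13 rose, among them Tbx3 (332 to 467 CPM) and Dppa5a (804 to 1108 CPM), and 5 fell, among them Sox2 (683 to 469 CPM) and Sall4 (277 to 187 CPM; group means). Over all tested genes, edgeR called 26.1% higher and 24.8% lower. Of the fibroblast or feeder cell markers, Lum had no count in any library, and Dcn and Postn had none in control. The 10 markers of that list summed to 23.5 to 33.8 CPM in control and 24.3 to 28.2 CPM in the Rif1-KO-labelled libraries. Of its 4 tested markers, Thy1 (11.3 to 5.67 CPM) fell and Twist1 (2.58 to 4.22 CPM) rose. Pdgfrb (10.5 to 12.6 CPM) and Col1a1 (2.38 to 2.06 CPM) did not pass.

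The result for the 10 genes was a fall of the main enzymes on both sides of the cycle and a rise of a single gene. Of the 10, 6 fell (Dnmt1, Uhrf1, Dnmt3a, Dnmt3b, Tet1 and Tet2), Dnmt3l rose, and 3 (Uhrf2, Tet3 and Tdg) did not pass a threshold of 0.05 on the adjusted p, from the quasi-likelihood test of edgeR over all tested genes. The test called 50.9% of all tested genes, 26.1% higher and 24.8% lower, so a count of 7 called among 10 has to be read against a background where about as many genes changed as did not. Of all calls 51.3% were higher. The offset for GC content and length covered 12695 of the genes, and over these the share of calls that were higher was 51.3% without it and 38.5% with it, while the same 7 of the 10 passed. Of these 7, Dnmt3a passed under 10 and Tet2 under 9 of the 13 alternatives, and the others under all 13. The median log2 fold change of the 10 was −0.17, against 0.00347 for all tested genes. Libraries of the groups did not overlap at 8 of the 10, where 57.2% of all tested genes had no overlap. By role, 2 of 3 maintenance genes fell, 2 of 3 de novo genes fell and the third rose, 2 of 3 oxidation genes fell, and the excision gene did not pass. A bulk count cannot tell less RNA per cell from fewer cells that express a gene.

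**Figure D1:**
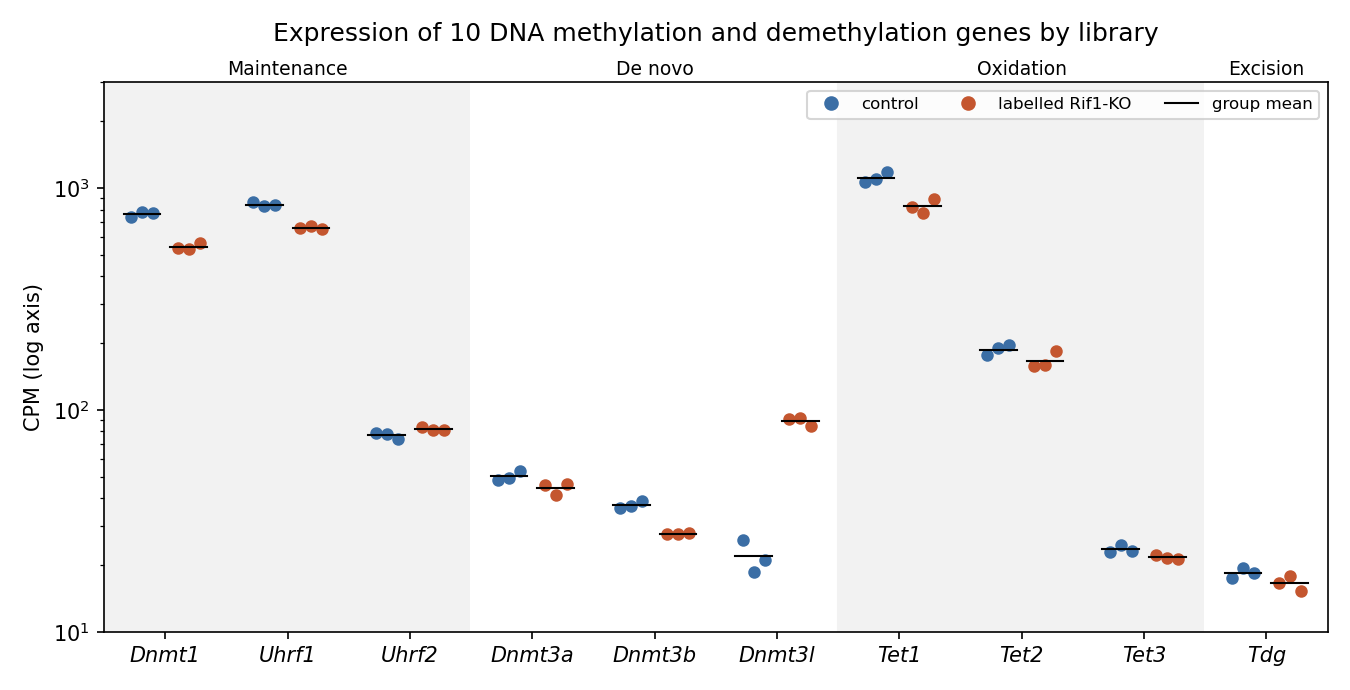
CPM on a log axis for each of the 10 genes, with 1 point per library (3 control, 3 labelled Rif1-KO) and a line at each group mean. Dnmt3l is the gene whose Rif1-KO-labelled libraries, at 85.1 to 91.7 CPM, lie far above control, at 18.6 to 25.9 CPM, while Dnmt1, Uhrf1, Dnmt3b and Tet1 lie below control without overlap.

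Sequence before the start sites is shown for Dnmt3l, which moved opposite to the other genes called, and for Dnmt3b and Tet2, which fell, have start regions richer in CpG and were picked after their CpG counts were seen. RefSeq start regions of 300 bases (build GRCm38.p6; 250 bases before and 50 after the start) were matched for all 10 genes, with several starts for Dnmt1, Uhrf1, Dnmt3a and Dnmt3l. The 3 Dnmt3l regions held 6, 4 and 3 CpG dinucleotides, against a median of 7 over 32851 regions in the table, whereas Dnmt3b held 30 and Tet2 57. CpG content did not separate the gene that rose from all that fell, because the 3 regions of Dnmt1 held 2, 12 and 33, the first of them fewer than any region of Dnmt3l. Those of the other 6 genes held 12 to 47. Between 31.4% and 47.9% of all regions held as few CpG as those of Dnmt3l or fewer, compared with 89.4% for Dnmt3b and 99.9% for Tet2. Below, each line gives the 120 bases before a start, 5′ to 3′ along the gene, with CpG in capitals.
Dnmt3l (the first start), chr10:78042167-78042286, plus strand: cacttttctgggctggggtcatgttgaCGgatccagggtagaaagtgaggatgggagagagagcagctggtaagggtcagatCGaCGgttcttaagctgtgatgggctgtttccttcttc
Dnmt3l (the next start), chr10:78049722-78049841, plus strand: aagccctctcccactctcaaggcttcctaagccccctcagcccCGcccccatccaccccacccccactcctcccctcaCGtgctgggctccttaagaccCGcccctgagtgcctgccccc
Dnmt3l (the last start), chr10:78055215-78055334, plus strand: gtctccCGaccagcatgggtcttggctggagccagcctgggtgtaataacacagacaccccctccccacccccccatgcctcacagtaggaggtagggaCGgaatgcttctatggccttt
Dnmt3b, chr2:153649329-153649448, plus strand: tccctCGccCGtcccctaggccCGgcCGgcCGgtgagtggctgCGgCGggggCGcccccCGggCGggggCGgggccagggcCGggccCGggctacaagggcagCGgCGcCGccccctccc
Tet2, chr3:133544391-133544510, minus strand: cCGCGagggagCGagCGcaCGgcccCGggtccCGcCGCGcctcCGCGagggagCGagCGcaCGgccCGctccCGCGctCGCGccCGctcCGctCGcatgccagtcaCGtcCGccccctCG
These stretches held 3, 3 and 2 CpG for Dnmt3l, 16 for Dnmt3b and 25 for Tet2. Which of the Dnmt3l starts was used in these cells cannot be read from counts per gene.

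The start regions of all 10 genes were also searched for letters known to be bound by E2F factors, the regulators of S phase genes. The letters were TTTCCCGC, TTTGGCGC, TTTCGCGC and TTTGCCGC, on both strands, and 2.26% of all 300-base regions held at least 1 of them. Each of these strings contains a CpG, and the share among regions equally rich in CpG was not computed. Among the regions of the 10 genes, matches were found for Dnmt1 (2 in the region of 1 of its 3 starts, which has 33 CpG) and Uhrf1 (1 in the region of 1 of its 2 starts, which also has 33 CpG) and for none of the other 8 genes. The E-box letters CACGTG, bound by MYC and related factors and held by 7.15% of all regions, were found once each in a region of Dnmt3a, of Dnmt3l and of Tdg. The E2F-like match for Uhrf1, which fell with Dnmt1, begins 185 bases before the start and is in capitals here.
Uhrf1, chr17:56304092-56304171, plus strand: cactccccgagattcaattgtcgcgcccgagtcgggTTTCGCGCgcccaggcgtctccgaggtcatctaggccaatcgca
A match describes these letters only. It does not show that a factor was bound.

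Dnmt1, which copies methylation at the replication fork, stood at 737, 781 and 773 CPM in control and at 539, 532 and 565 CPM in the Rif1-KO-labelled libraries. Every Rif1-KO-labelled library was below every control library. The mean fell from 764 ± 23.3 to 545 ± 17.1 CPM (n = 3, SD), with a log2 fold change of −0.49 ± 0.05 and an adjusted p of 3.77e-08 by edgeR. A log2 fold change this low or lower was found for 8.27% of tested genes.

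Uhrf1, the gene of the protein that brings DNMT1 to newly replicated DNA, had 863, 826 and 839 CPM in control and 660, 677 and 653 CPM in the Rif1-KO-labelled libraries. The groups were again apart, with narrow ranges in both. The mean fell from 843 ± 18.8 to 663 ± 12.5 CPM (SD over 3 libraries; edgeR log2 fold change −0.35 ± 0.04 with adjusted p = 2.14e-06). Uhrf1 shared 15.4% of its 50-base transcript stretches with other annotated genes, chiefly Gm5648, which stood at 2.18 and 2.09 CPM in the 2 groups. The counts assigned to Gm5648 were thus few beside those of Uhrf1. How reads that map to several places were counted is not given, so the effect of the shared stretches cannot be told.

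Uhrf2 was not called. Its libraries had 78.4, 77.6 and 74.2 CPM in control and 84.0, 81.2 and 81.3 CPM in those labelled Rif1-KO. All Rif1-KO-labelled values were above control, but by little, and the difference did not pass (log2 fold change 0.10 ± 0.05, adjusted p = 0.123 by edgeR). With an offset for GC content and annotated exon length its sign turned, to −0.03 (adjusted p = 0.635). Scaled by exon length, Uhrf2 made up 4.32% ± 0.124 of the summed Uhrf1 and Uhrf2 level in control and 5.79% ± 0.164 in the Rif1-KO-labelled libraries (SD, n = 3), without overlap.

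The fall of Dnmt1 and Uhrf1 came beside a fall of genes of S phase, the period of DNA replication. Of 20 such genes on a list that left out Dnmt1 and Uhrf1, 19 fell, 0 rose (0 also with DESeq2, with limma-voom and at an unadjusted p under 0.05 by edgeR), and Ccne2 did not pass (log2 fold change 0.16, adjusted p = 0.234 by edgeR). Among all tested genes 24.8% were called lower and 26.1% higher. The list was chosen with earlier results of these data known. The median log2 fold change of the 20 listed genes was −0.46. Cdc6, which loads the replicative helicase, went from 62.5 ± 2.61 to 35.9 ± 1.12 CPM, Mcm3 and Mcm5, helicase subunits, fell by 0.55 on the log2 scale each, and the cyclin gene Ccne1 fell by 0.74. The log2 fold changes of the list ran from −0.80 (Cdc6) to 0.16 (Ccne2). Dnmt1 lay in that range, as did every other member except Dnmt3l, so the range does not set Dnmt1 apart. The part of cell cycle makeup in the result for Dnmt1 and Uhrf1 was not tested.

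Among the de novo genes the enzymes fell and their inactive partner rose. Dnmt3a, at 48.4, 49.6 and 52.9 CPM in control, had 45.8, 41.5 and 46.4 CPM in the Rif1-KO-labelled libraries. The highest of the latter was 46.4 CPM and the lowest control value 48.4 CPM, so the groups were apart by a small margin. The mean went from 50.3 ± 2.31 to 44.6 ± 2.66 CPM (SD over 3 libraries; edgeR log2 fold change −0.17 ± 0.07 with adjusted p = 0.0354). This call was lost with DESeq2 (−0.18, adjusted p = 0.131), when control replicate 3 was left out (−0.14, adjusted p = 0.158) and when Rif1-KO replicate 2 was (−0.13, adjusted p = 0.17), and over all 13 alternatives the adjusted p ran from 0.00166 to 0.17. With the GC and length offset the log2 fold change was −0.26.

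Dnmt3b had 36.3, 37.1 and 38.7 CPM in control and 27.7, 27.7 and 27.8 CPM in the Rif1-KO-labelled libraries. The Rif1-KO-labelled libraries were almost identical to each other and all below control. Its mean fell from 37.4 ± 1.22 to 27.7 ± 0.0522 CPM (SD over 3 libraries; edgeR log2 fold change −0.43 ± 0.07 with adjusted p = 4.53e-05). Dnmt3b shared 9.81% of its 50-base stretches with Dnmt3c, a rodent relative known from the male germline. The table lists that gene under the older symbol Gm14490, with 0 to 3 counts per library.

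Dnmt3l was the member with the largest change. Its libraries had 25.9, 18.6 and 21.1 CPM in control (240, 153 and 191 counts) and 91.1, 91.7 and 85.1 CPM in those labelled Rif1-KO (1008, 908 and 778 counts). Each Rif1-KO-labelled library was more than 3 times above the highest control library. The mean rose from 21.9 ± 3.74 to 89.3 ± 3.66 CPM (SD, n = 3), 4.08-fold, with a log2 fold change of 2.02 ± 0.08 and an adjusted p of 1.93e-13 by edgeR. Of all tested genes, 1.28% had a log2 fold change as high or higher. Control values of Dnmt3l also varied most, with a coefficient of variation of 17.1%, against 2.23% to 5.53% for the other 9 genes.

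Dnmt3l shares a short stretch of exon with Aire, which lies on the opposite strand and covers 2.24% of the exonic bases of Dnmt3l in the GENCODE annotation. Aire, the autoimmune regulator known from the thymus, had 33.5, 34.0 and 32.9 CPM in control and 85.3, 80.7 and 91.0 CPM in the Rif1-KO-labelled libraries (log2 fold change 1.36 ± 0.06, adjusted p = 1.43e-12 by edgeR). Both neighbours therefore rose. The strand setting of the counting is not given in the sources used here, so reads in the shared stretch cannot be assigned to either gene. Aire was picked for this overlap after its values were seen.

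Set beside each other per kilobase of exon, the 3 de novo genes changed their balance. Levels in this scale are CPM per kilobase of annotated exon. Dnmt3l stood at 7.33 ± 1.25 in control, next to Dnmt3b at 7.32 ± 0.24 and above Dnmt3a at 3.02 ± 0.139 (SD, n = 3). In the Rif1-KO-labelled libraries the levels were 29.9 ± 1.23, 5.43 ± 0.0102 and 2.68 ± 0.16. Dnmt3l held 46.4%, 37.8% and 39.7% of the summed level of the 3 genes in control and 78.8%, 79.5% and 77.6% in the Rif1-KO-labelled libraries. Dnmt3l RNA thus went from a ratio of 1 ± 0.192 to Dnmt3b to a ratio of 5.50 ± 0.234. With the longest transcript as length the same ratio went from 1.39 ± 0.266 to 7.63 ± 0.325. Within the catalytic pair, Dnmt3a took 29.2% ± 0.27 of the summed Dnmt3a and Dnmt3b level in control and 33.0% ± 1.29 in the Rif1-KO-labelled libraries, without overlap.

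**Figure D2:**
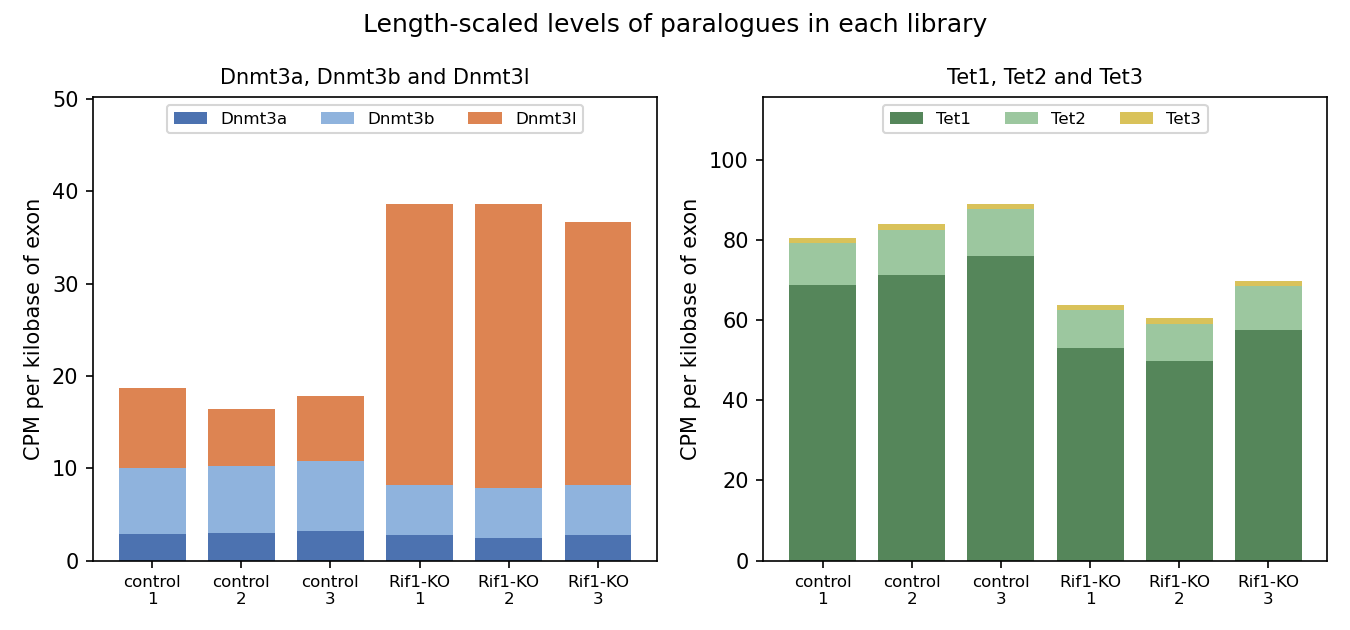
Stacked levels in CPM per kilobase of exon for Dnmt3a, Dnmt3b and Dnmt3l (left) and Tet1, Tet2 and Tet3 (right), 1 bar per library. Dnmt3l makes up 37.8% to 46.4% of the left bars in control and 77.6% to 79.5% in the Rif1-KO-labelled libraries, and Tet1 makes up at least 82.3% of every right bar.

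Of genes with a mean of at least 10 CPM, the 3 whose log2 CPM profile over the 6 libraries came nearest to that of Dnmt3l were Wls, which encodes a carrier for secreted Wnt proteins, Jun, a subunit of the transcription factor AP-1, and Irs2, an adaptor of insulin signalling. The root-mean-square difference of their centred profiles from that of Dnmt3l was 0.105, 0.108 and 0.113 on the log2 scale, among 9820 genes compared. Wls went from 5.18 ± 0.768 to 24.1 ± 2.72 CPM, Jun from 25.2 ± 0.994 to 106 ± 3.31 CPM and Irs2 from 13 ± 1.33 to 52.6 ± 1.89 CPM (SD, n = 3). With 3 libraries a group, nearness here is mostly a rise of like size.

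Tet1, the most abundant TET gene of mouse embryonic stem cells, had 1064, 1103 and 1178 CPM in control and 822, 770 and 892 CPM in the Rif1-KO-labelled libraries. All Rif1-KO-labelled values were below all control values. The mean fell from 1115 ± 58.1 to 828 ± 61.4 CPM (SD over 3 libraries; edgeR log2 fold change −0.43 ± 0.05 with adjusted p = 2e-06). The fall was larger, −0.65, once GC content and length were offset (adjusted p = 7.94e-10 by edgeR). Over the 12695 genes which that fit covers, the median log2 fold change was −0.0751 with the offset and 0.00606 without it.

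Tet2, the other TET gene with a substantial level, had 176, 190 and 196 CPM in control and 158, 159 and 184 CPM in the Rif1-KO-labelled libraries. The groups overlapped, since Rif1-KO replicate 3 was above control replicate 1. The mean went from 187 ± 10.4 to 167 ± 14.8 CPM (SD over 3 libraries; edgeR log2 fold change −0.17 ± 0.06 with adjusted p = 0.0218). The call was lost when any of 4 libraries was left out, namely control replicate 2 (adjusted p = 0.0553), replicate 3 of control (0.119), Rif1-KO replicate 1 (0.118) and the second Rif1-KO replicate (0.113). With the GC and length offset the log2 fold change was −0.36, and over the 13 alternatives the adjusted p ran from 5.07e-06 to 0.119.

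Tet3, better known from the oocyte and zygote, was the lowest of the family, at 23.0, 24.7 and 23.1 CPM in control and 22.3, 21.6 and 21.4 CPM in the Rif1-KO-labelled libraries. The values were slightly lower in the latter group without overlap, and the difference did not pass (log2 fold change −0.11 ± 0.08, adjusted p = 0.276 by edgeR). Per kilobase of exon, Tet1 held 85.4%, 84.8% and 85.4% of the summed TET level in control and 83.2%, 82.3% and 82.6% in the Rif1-KO-labelled libraries. Tet2 held 13.1% ± 0.254 and 15.3% ± 0.517 (SD, n = 3). The summed CPM of the 3 genes went from 1326 to 1017, a decrease of the mean by 23.3%, while that of Dnmt1, Dnmt3a and Dnmt3b decreased by 27.5%. These sums are not scaled by length and mostly restate single genes. In control, Tet1 made up 1115 of 1326 CPM and Dnmt1 764 of 852 CPM. The ratio of Dnmt1 to Tet1 per kilobase overlapped between the groups, at 1.37 to 1.48 in control and 1.33 to 1.45 in the Rif1-KO-labelled libraries.

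Tdg, the glycosylase that completes the TET pathway, had 17.5, 19.4 and 18.5 CPM in control and 16.6, 17.9 and 15.3 CPM in the Rif1-KO-labelled libraries. The groups overlapped and the difference did not pass (log2 fold change −0.15 ± 0.10, adjusted p = 0.216 by edgeR). Tdg is the least certain of the 10 counts, because 41.2% of its 50-base stretches occur in other annotated genes, mainly pseudogene copies. One of these, Gm9855, was listed at 16.4 ± 1.05 CPM in control, below the mean of 18.5 CPM of Tdg, and at 16.9 ± 0.827 CPM in the Rif1-KO-labelled libraries, where Tdg had a mean of 16.6 CPM. It did not pass either (adjusted p = 0.747 by edgeR). Gm9855 was picked for this shared sequence.

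**Figure D3:**
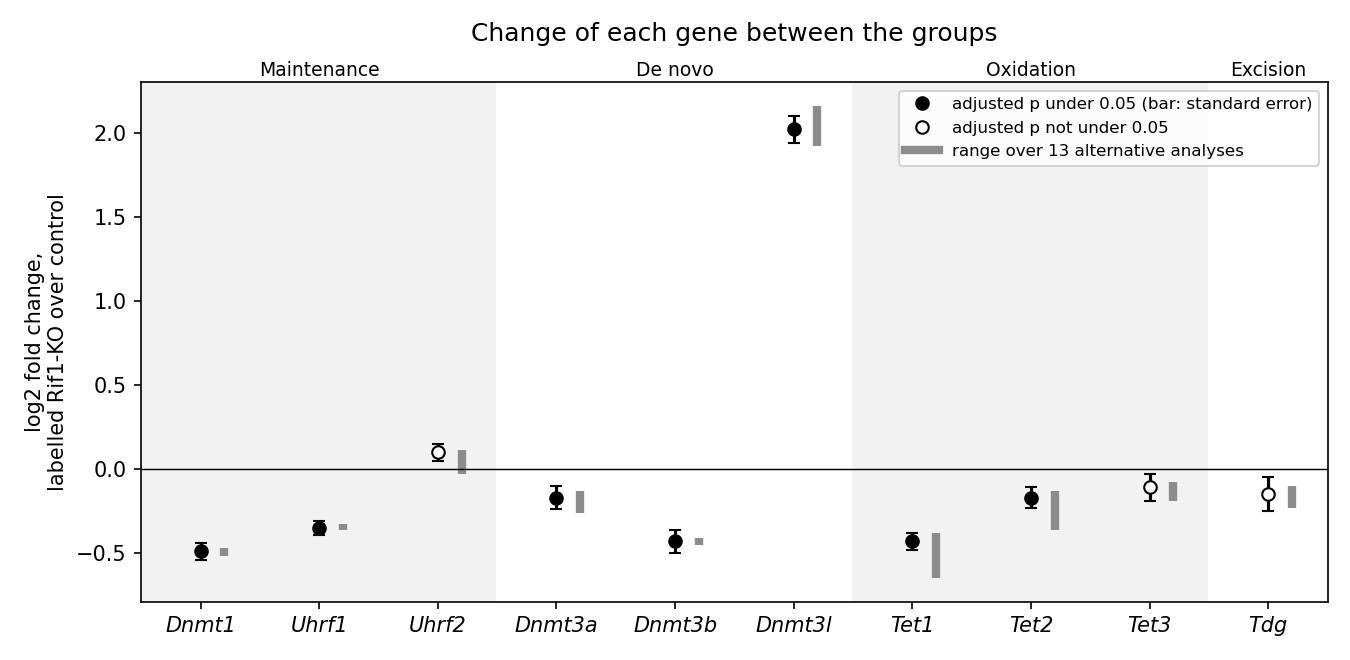
Log2 fold change of each gene, Rif1-KO-labelled libraries over control, with its standard error, filled where the adjusted p was under 0.05. Grey bars give the range over 13 alternative analyses. Dnmt3l stays between 1.92 and 2.16 and Dnmt1 between −0.52 and −0.47, while the bar of Uhrf2 crosses 0.

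Ordered by level per kilobase of exon, control libraries had Uhrf1 first (198 ± 4.4), then Dnmt1 (104 ± 3.15), Tet1 (72.2 ± 3.76), Tet2 (11.1 ± 0.614), Uhrf2 (8.93 ± 0.258), Dnmt3l, Dnmt3b, Tdg (3.44 ± 0.179), Dnmt3a and Tet3 (1.41 ± 0.055; SD, n = 3). Dnmt3l and Dnmt3b could not be ordered, since the values of Dnmt3b lay inside the range of Dnmt3l on this length. In the Rif1-KO-labelled libraries, Dnmt3l moved from the sixth place to the fourth, directly after Tet1 (53.6 ± 3.97), and Tet2 (9.90 ± 0.876) and Uhrf2 (9.56 ± 0.183) overlapped. The first 3 places, the fourth place of Dnmt3l in the Rif1-KO-labelled libraries and the last place of Tet3 were the same with the length of the longest transcript in place of all exons. That length put Dnmt3l (10.2 to 14.2) above Dnmt3b (8.41 to 8.96) in control without overlap. It also put Uhrf2 before Tet2, with overlap in control (21.7 ± 0.628 and 20.4 ± 1.13) and without overlap in the Rif1-KO-labelled libraries (23.0 to 23.7 and 17.2 to 20.1), so the order of these pairs depends on the length used.

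The wider pathway did not move as 1 block. Of 23 tested partners and readers of methylation, 12 fell, 4 rose and 7 did not pass, with a median log2 fold change of −0.15, where 24.8% of all tested genes fell and 26.1% rose. The number that rose was 1 with DESeq2 and 2 without control replicate 1 or 3. Cdca7, which recruits the remodeller HELLS to DNA that is hard to methylate, fell from 162 ± 8.76 to 99.3 ± 1.27 CPM (SD, n = 3), and Hells itself fell from 433 ± 2.47 to 337 ± 15.1 CPM (log2 fold change −0.36, and −0.58 with the GC and length offset). Trim28, a corepressor that guards methylation at imprinted loci, fell from 1089 ± 33.1 to 785 ± 46.5 CPM, whereas Zfp57, the zinc finger protein that brings TRIM28 to those loci, rose from 523 ± 8.66 to 747 ± 16 CPM. Usp7, a deubiquitinase that binds DNMT1 and UHRF1, fell by 0.31 ± 0.05 on the log2 scale, and by 0.47 with the offset. Dppa3, whose product keeps UHRF1 away from chromatin in oocytes, was low in both groups and went from 2.25 ± 0.783 to 0.810 ± 0.326 CPM (edgeR log2 fold change −1.43 ± 0.35 with adjusted p = 0.00194). With 5 to 13 counts per Rif1-KO-labelled library it reached the count filter through the control group alone, and without it 11 of 22 fell.

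Of 20 tested demethylation and base excision repair genes, 7 rose, 7 fell and 6 did not pass, against 26.1% and 24.8% of all tested genes. The number that rose was 4 with DESeq2, with the GC and length offset, without control replicate 1 and without Rif1-KO replicate 2, while 6 or 7 fell there. Gadd45b, a stress-response gene linked to active demethylation, rose from 32.8 ± 2.10 to 104 ± 8.26 CPM (SD, n = 3). The uracil glycosylase gene Ung fell from 104 ± 6.15 to 57.6 ± 4.22 CPM, the abasic site nuclease gene Apex1 from 50.7 ± 3.78 to 28.9 ± 2.81 CPM and the repair scaffold gene Xrcc1 from 226 ± 5.87 to 170 ± 9.75 CPM. Ogt, which encodes a sugar transferase bound by TET proteins, went from 624 ± 20.5 to 711 ± 32.8 CPM (adjusted p = 0.00264 by edgeR), a call lost with the GC and length offset (log2 fold change −0.01, adjusted p = 0.93). Mbd4, a glycosylase gene with a role near that of Tdg, was called at 0.16 ± 0.07 on the log2 scale (adjusted p = 0.0455 by edgeR), and passed in only 5 of 13 alternatives (0.01 with the offset).

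Genes that supply the methyl donor or the cofactors of TET proteins moved in both directions. Among the 14 tested there were 2 that rose and 4 that fell, and 8 did not pass, with a median log2 fold change of −0.06. The share called was 42.9%, below the 50.9% of all tested genes, and 7 fell with the GC and length offset. Idh1, which makes the TET cosubstrate alpha-ketoglutarate in the cytosol, rose from 157 ± 6.43 to 197 ± 1.81 CPM (a log2 difference of 0.33, and of 0.19 with the offset), and the vitamin C transporter gene Slc23a2 from 135 ± 7.39 to 174 ± 7.66 CPM (SD over 3 libraries each). Ahcy, which removes the by-product of methylation, fell from 39.9 ± 1.46 to 30.7 ± 2.23 CPM, and Idh3g, a mitochondrial subunit, from 160 ± 13.5 to 131 ± 4.23 CPM.

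A list of 14 tested germline genes known to be silenced by methylation of their promoters had 12 that rose, Hormad1 that fell (log2 fold change −0.55 ± 0.08) and Tex11 that did not pass (0.29, adjusted p = 0.0511 by edgeR), with a median of 1.21, where 26.1% of all tested genes rose. Taf7l rose from 6.85 ± 0.380 to 33.7 ± 0.910 CPM, Dazl from 40.8 ± 2.87 to 96.6 ± 2.98 CPM, Ddx4 from 17 ± 1.68 to 48.9 ± 2.82 CPM and Stk31 from 13.3 ± 0.216 to 37.5 ± 3.63 CPM (SD, n = 3). Asz1 and Tex101 had control means of 0.463 and 0.570 CPM and reached the count filter only through the Rif1-KO-labelled libraries. Without both, 10 of 12 rose, with a median of 1.0 on the log2 scale. A rise of germline genes in these libraries was known when the list was made. Whether promoter methylation of any of them differed was not tested.

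**Figure D4:**
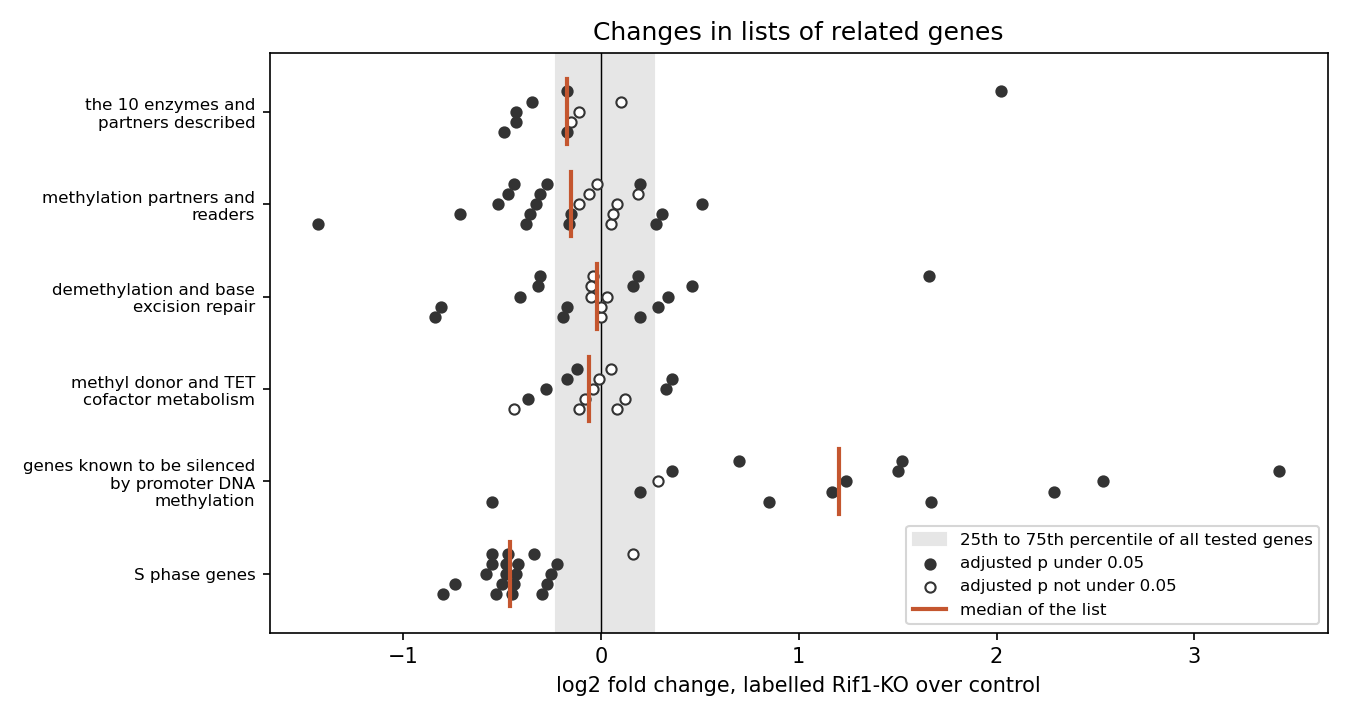
Log2 fold change, Rif1-KO-labelled libraries over control, of the 10 genes and of each list of related genes, 1 point per tested gene, filled where the adjusted p was under 0.05, with the list's median as a line. The grey band spans the 25th to the 75th percentile of all tested genes (−0.227 to 0.268), and the medians of the S phase list (−0.46) and the germline list (1.21) lie outside it. Without Asz1 and Tex101, which reached the count filter only through the Rif1-KO-labelled libraries, the germline median was 1.0. Both lists were chosen with earlier results of these data known.

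Markers of other cell states were read beside these changes. Counts of calls below stand against 26.1% of all tested genes called higher and 24.8% called lower. Two-cell-like markers, 11 of 18 listed being in the table, summed to 0.108 to 0.553 CPM in control and 23.2 to 26.4 CPM in the Rif1-KO-labelled libraries, with Tdpoz3, Tdpoz4 and Spz1 at 0 in control and Gm4340 and Tdpoz1 at 0 in all 6 libraries. Primitive endoderm markers summed to 686 to 698 and 953 to 985 CPM, with most of the added CPM from Sparc (269 to 516 CPM). Of the 8 tested, 6 were higher, among them Dab2 (3.87 to 13.1 CPM) and Gata6 (1.54 to 2.85 CPM), while Col4a1 and Lama1 did not pass. Sox17 (0.490 to 1.54 CPM), counted among the 6, reached the count filter only through the Rif1-KO-labelled libraries. Sox7 (0.543 to 0.0975 CPM) and Foxa2 (0.220 to 0.432 CPM) had too few counts to be tested. Trophectoderm markers summed to 84.2 to 85.2 and 167 to 180 CPM, with Cdx2 at 0 in all libraries. Of the 5 trophectoderm markers tested, Krt8 (22.5 to 74.2 CPM) and Krt18 (25.8 to 69.9 CPM) rose, Krt7 (22.9 to 16.1 CPM) and Ascl2 (4.35 to 2 CPM) fell and Eomes did not pass. Formative and primed markers, Dnmt3a and Dnmt3b among them, summed to 188 to 195 and 192 to 196 CPM, with 4 of the 9 tested higher, among them Grhl2 (14.4 to 43.9 CPM), and 4 lower, among them Otx2 (51.7 to 28.1 CPM). Neuroectoderm markers summed to 133 to 153 and 161 to 166 CPM, without overlap, with Nes (46.2 to 99.8 CPM) among 3 that rose and Ncam1 (85.4 to 46.6 CPM) among 2 that fell. Mesoderm markers summed to 23.5 to 27.7 and 24.7 to 26.6 CPM, with 3 of the 6 tested higher and 1 lower. Of the markers counted as higher, Sox3 (formative, 0.866 to 3.94 CPM), Zic1 (neuroectoderm, 0.634 to 2.59 CPM) and Snai1 (mesoderm, 1.05 to 3.06 CPM) also reached the count filter only through the Rif1-KO-labelled libraries. Pou3f1 (formative, 2.28 to 1.37 CPM), counted as lower, reached it only through control. The part of any of these marker changes in the changes of the 10 genes was not tested.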

How the data were processed

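The authors deposited raw counts of reads per gene symbol, 1 table per library, without normalization. Per the submitters' processing notes, the aligner was STAR, the counter featureCounts 1.6.2 and the build mm9; the sources used here do not give the annotation, strand or multi-mapping settings. CPM were computed here with TMM-scaled library sizes. The test was that of edgeR 4.0.16, run in R 4.3.3 (filterByExpr, quasi-likelihood test, group as the only term, Benjamini-Hochberg over 14250 genes, threshold 0.05). Alternatives were other scalings, no filter, DESeq2 1.42.0, limma-voom (limma 3.58.1), a replicate block, a GC and length offset (values for 89.1% of tested genes) and leaving out each library. The script was tested on simulated data. Exon and transcript lengths, GC content and 50-base stretches came from GENCODE M21 (GRCm38), a build other than that of the counts, matched by symbol, and start regions from RefSeq.

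The 10 genes and all lists were chosen with earlier results of these data known. Named genes were all members and, per list, the 4 with the lowest adjusted p, plus 3 nearest in profile to the member with the largest change (log2 of CPM plus 1). Others were picked after their values were seen. Within a group, no pair of libraries agreed within counting noise (chi-square per degree of freedom 1.27 to 4.22). Of the listed genes Dcaf1, Hmces and Rhox5 were not analysed here by those symbols, and Cxxc4, Slc23a1, Rhox2a and Elf5 had too few counts to be tested. One listed item is not reported here.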

Additional observations from a re-analysis of the deposited data

How the results depend on the processing

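Across 13 alternatives, Dnmt1, Uhrf1, Dnmt3b, Dnmt3l and Tet1 passed in all 13 with their direction, and Uhrf2, Tet3 and Tdg passed in none. With the GC and length offset, the log2 fold change of Uhrf2 turned to −0.03, that of Ogt to −0.01 and that of Ccne2 to −0.01; the cause was not tested. Over the 12695 genes with reference values, the fit with the offset called 2659 higher and 4253 lower (38.5% higher), and the fit without it 3369 and 3200 (51.3%). With DESeq2, Dnmt3a had −0.18 and did not pass, and the lists had 1 partner or reader and 4 demethylation or repair genes called higher. With the offset, Tet3 had −0.19, Tdg −0.23 and Tex11 0.12, 4 demethylation or repair genes were called higher and 7 donor or cofactor genes lower. Leaving out 1 library at a time gave log2 fold changes from −0.20 to −0.13 for Dnmt3a, −0.24 to −0.13 for Tet2 and 1.92 to 2.16 for Dnmt3l, 4 to 6 members called lower, 2 to 3 partners or readers called higher (2 without control replicate 1 or 3) and 4 to 7 demethylation or repair genes called higher (4 without control replicate 1 or Rif1-KO replicate 2). With the longest transcript as length, Dnmt3l made up 46.3% and 81.6% of the de novo sum and Tet1 77.5% and 74.0% of the TET sum, in control and in the Rif1-KO-labelled libraries, because the lengths that divide the counts change.

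Replicate numbers were not used to pair the libraries, since the correlations of deviations between libraries of the same number were not all over 0.1. Whether libraries of the same number shared a batch cannot be told from so few libraries. With a replicate block the 10 members gave the same 7 calls, Dnmt3l at 2.02 (adjusted p = 2.59e-12 by edgeR) and Dnmt3a at −0.17 (adjusted p = 0.0318). The offset changed the log2 fold change of the 12695 genes by −0.0534 at the median. Counting only list genes that reached the count filter in each group on its own, an alternative chosen after seeing the data, left all counts of calls within 1.5 times. Tdg had the fewest counts, 140 to 184 per library, and the largest standard error of the 10, 0.10 on the log2 scale.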

Other observations

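Among the 10 genes Dnmt3a, Dnmt3b, Tet1 and Tet2, and beside them Rif1, each had their highest value of the group in replicate 3, in control and in the Rif1-KO-labelled libraries alike, at 52.9 and 46.4 CPM for Dnmt3a, 38.7 and 27.8 CPM for Dnmt3b, 1178 and 892 CPM for Tet1, 196 and 184 CPM for Tet2 and 700 and 664 CPM for Rif1. For Dnmt3b the Rif1-KO-labelled libraries hardly differed (27.7, 27.7 and 27.8 CPM). These genes were named because they had this pattern, and the share of all tested genes with it is not given here. The correlation of deviations between libraries of the same replicate number, over all tested genes, was 0.0644 for number 3, 0.117 for number 1 and −0.0814 for number 2.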
